A study of Mus musculus with 4 samples.

Results

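Alveolar type II cells (AEC2), which secrete the surfactant that lines the alveoli, were compared between Tlr4-/- mice at day 4 after bleomycin and untreated Tlr4-/- mice. These 2 samples were chosen by their labels from the 4 of the series; the other two were the same comparison in wild-type mice, untreated and at day 4. All groups were AEC2 obtained by flow sorting, and each RNA sample was a pool of cells from 4 to 5 mouse lungs hybridised to 1 array. The Tlr4-/- untreated group carried the null genotype and no agent, and the Tlr4-/- day 4 group carried the same genotype and had received bleomycin, a DNA-damaging drug that injures the alveolar epithelium. The allele, strain, sex and age of the mice and the bleomycin dose are not stated in the labels used here. With 1 array per group there was no replicate, so no test was made and no difference below has a standard error from replicate animals.

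TLR4 is a receptor of innate immunity that senses bacterial lipopolysaccharide and fragments of the matrix sugar hyaluronan released in injured tissue, and it signals to NF-kB and to interferon genes. AEC2 make surfactant and, after injury, divide and pass through a keratin-rich transitional state on the way to flat type I cells (AEC1). The title of the series names hyaluronan, TLR4 and the renewal of these alveolar stem cells. The comparison here asks which genes differed after bleomycin in AEC2 that lack the receptor.

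Values are log2 signals, averaged over the probe sets of a gene, so a difference of 1 is 2-fold. Of 18194 genes on the array with 1 symbol, the 9097 whose mean over the 4 arrays was above the median gene, a log2 signal of 7.05, were kept. No detection calls were used, so folds over a signal below that level have an uncertain size. The nearest measure of technical error was the spread between probe sets of a gene. Over 4491 genes with several probe sets above that level, the median SD of their differences was 0.23. The labelled cell type was borne out by its defining genes. Sftpc, the gene for surfactant protein C, had a log2 signal of 14.02 untreated and 14.05 at day 4, and Sftpb, for surfactant protein B, 13.99 and 13.94. Tlr4 averaged 7.44 untreated and 7.24 at day 4 over 4 probe sets, which did not act alike. One probe set was at 7.24 and 6.39, against 8.87 and 9.07 in wild type, so on both arrays the signal was lower than in wild type. The others stood at 10.38 and 10.29, at 8.09 and 8.39, and at 4.05 and 3.89, of which the first and second were above wild type (9.71 and 9.88, and 7.65 and 7.90). Which of them lie in the deleted sequence is not stated in the labels used here, so these values do not check the genotype. Sex-linked genes also differed between untreated and day 4 pools, in both genotypes. The Y-linked gene Eif2s3y went from 6.86 to 8.87 and Kdm5d from 6.55 to 7.83, and Xist, which is expressed from the inactive X chromosome, from 11.30 to 10.04. In wild type Eif2s3y went from 6.82 to 8.85, Kdm5d from 6.78 to 7.80 and Xist from 11.41 to 10.79. The part of sex in the differences below, and in what the genotypes share, was not tested.

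At day 4 more genes were higher than lower in Tlr4-/- AEC2. Among the 9097 genes, 223 (2.45%) were higher by 2-fold or more and 81 (0.89%) were lower by as much, and 25 and 3 were past 4-fold. The median difference over all genes was 0.01, and 51.7% of genes were above 0 (59.5% in wild type, median 0.07). In the wild-type pair, 2.55% of genes were past 2-fold higher and 0.308% past 2-fold lower. Of the 223 higher genes, 70 had an untreated Tlr4-/- signal below 7.05, and of the 81 lower genes, 18 had a day 4 signal below it. Where several probe sets of a called gene were bright, they went the same way in 69 of 69 higher and 26 of 26 lower genes. The call was made on the average of the probe sets, so this agreement is in part set by the choice. In the wild-type arrays, which shared no sample with this comparison but entered the filter, 125 of the 223 higher genes were also at least 2-fold higher. A further 89 were higher by less, and 9 were at or below 0. The part of the filter in this overlap was not tested. Of the 81 lower genes, 6 were at least 2-fold lower in wild type, 65 were lower by less and 10 were at or above 0. The median wild-type difference was 1.09 over the higher and -0.55 over the lower genes, against 1.28 and -1.14 in Tlr4-/-, the pair in which they were chosen.

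**Figure D1:**
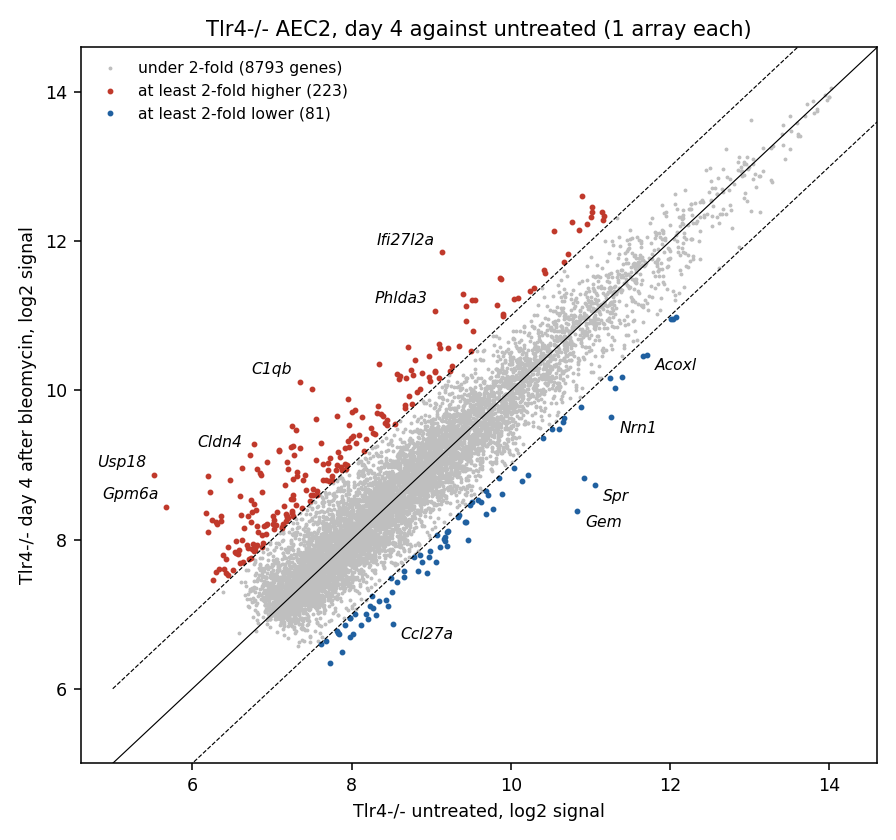
Log2 signal of each of 9097 genes in the Tlr4-/- untreated array (horizontal) and the Tlr4-/- day 4 array (vertical), 1 pooled array each; the solid line marks equal signals and the dashed lines 2-fold. The 223 higher genes lie mostly at low to middle signals, led by Usp18, while Gem and Spr stand farthest below the lines among the 81 lower genes.

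Among the genes kept, Usp18 was the highest, and the 3 chains of complement C1q were among the 20 highest. Usp18, an interferon-induced protease that removes ISG15 and restrains interferon signalling, went from 5.52 to 8.87, with wild-type values of 6.44 and 8.63. The untreated Tlr4-/- array was the lowest of the 4 for this gene, and both day 4 arrays were above both untreated ones. C1qb, a subunit of the first complement component, went from 7.35 to 10.12, C1qc from 6.19 to 8.85 and C1qa from 6.17 to 8.36. The wild-type values were 6.74 and 9.43 for C1qb, 6.44 and 8.42 for C1qc, and 5.86 and 8.12 for C1qa, so the day 4 arrays of both genotypes were high for the 3 chains. Ifi27l2a, an interferon-inducible gene, went from 9.14 to 11.85, while its wild-type values were 8.10 and 11.78. Gpm6a, a membrane glycoprotein used as a mesothelial marker, went from 5.67 to 8.44, against 7.82 and 8.80 in wild type. Here the untreated Tlr4-/- array alone was low, and the other three lay within 0.98 of each other.

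Other genes among the 20 highest included Clec4n, a C-type lectin of myeloid cells (6.77 to 9.29), and Itgax, which encodes the integrin CD11c (6.23 to 8.63). S100a4, a calcium-binding protein of motile cells, went from 7.51 to 10.02, and the tight junction gene Cldn4 from 6.72 to 9.14. Timp1, an inhibitor of metalloproteinases, went from 6.62 to 8.96, and Pdpn, a surface glycoprotein of AEC1, from 7.31 to 9.48. Dglucy (7.26 to 9.53), Aaas, a component of the nuclear pore (6.82 to 8.95), Serping1, the inhibitor of complement C1 (7.09 to 9.21), and Ifit1, an antiviral protein (6.85 to 8.90), were higher by 2.27, 2.13, 2.12 and 2.05. Ahnak2, the proteoglycan gene Bgn, the eosinophil-type ribonuclease gene Ear3 and Dmkn completed the 20, with differences of 2.09, 2.09, 2.07 and 2.02. For each of the 20, both day 4 arrays were above both untreated arrays.

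**Figure D2:**
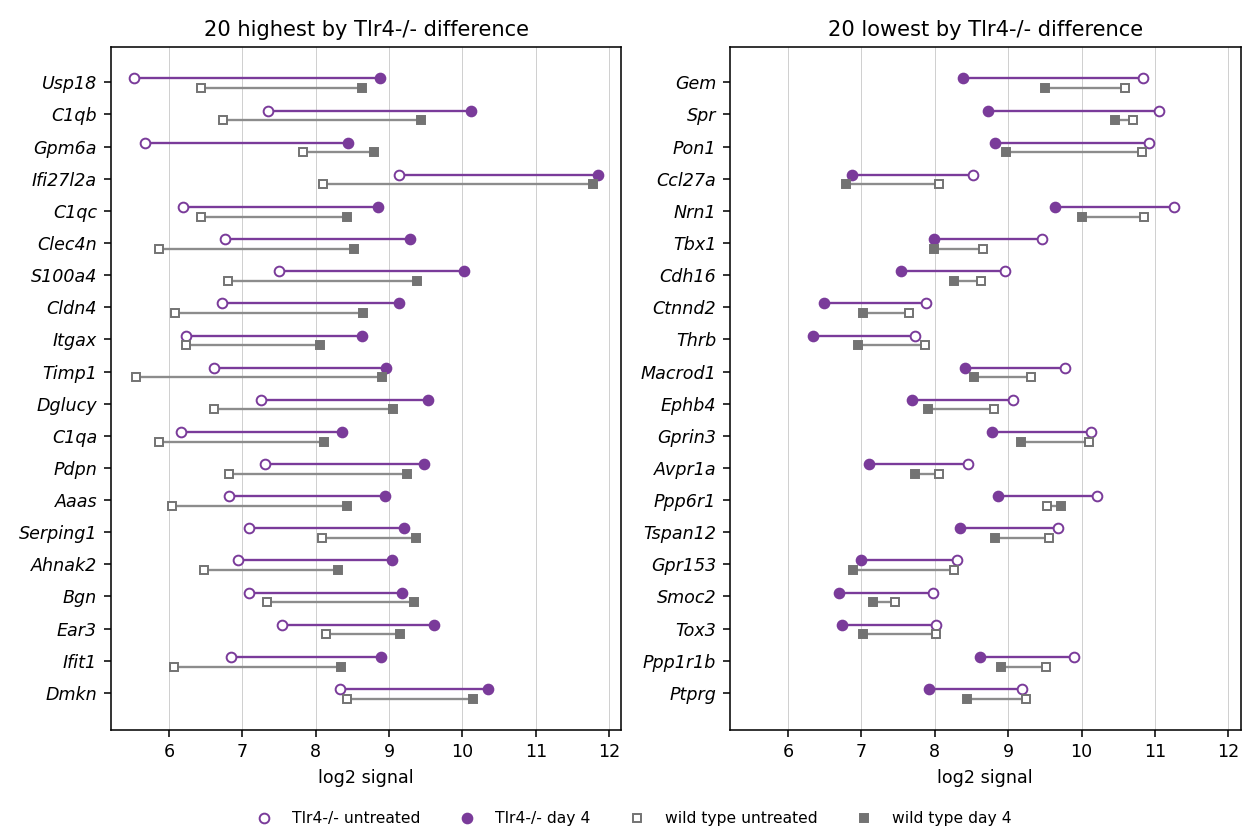
Log2 signals of the 20 highest (left) and 20 lowest (right) genes by the Tlr4-/- difference; purple circles are the Tlr4-/- arrays and grey squares the wild-type arrays, open for untreated and filled for day 4, with a line joining the 2 arrays of a genotype. Most lower genes start higher and end lower in Tlr4-/- than in wild type, and for Spr and Ppp6r1 the wild-type arrays lie close together.

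Among lower genes, Gem, a small GTPase of the RGK family, stood at 10.83 untreated and 8.38 at day 4, against 10.59 and 9.50 in wild type. Spr, sepiapterin reductase, which makes the cofactor tetrahydrobiopterin, stood at 11.06 and 8.73, while the wild-type arrays read 10.70 and 10.46. For Spr the Tlr4-/- day 4 array alone was low. Pon1, a lactonase and esterase of the paraoxonase family, stood at 10.92 and 8.82, and wild type had nearly the same values, 10.82 and 8.97. The chemokine gene Ccl27a was lower by -1.64, Nrn1, a GPI-anchored neuritin, by -1.62, and the T-box factor Tbx1 by -1.47. Next came the cadherin Cdh16 (-1.40), the catenin Ctnnd2 (-1.39), the thyroid hormone receptor Thrb (-1.38), Macrod1, which removes ADP-ribose (-1.37), and the ephrin receptor Ephb4 (-1.37). Gprin3, the vasopressin receptor Avpr1a, the phosphatase subunit Ppp6r1, the tetraspanin Tspan12, Gpr153, Smoc2, Tox3, Ppp1r1b and the receptor phosphatase Ptprg made up the rest of the 20, between -1.35 and -1.27. In wild type 19 of these 20 were lower as well, by 0.25 to 1.86, and Ppp6r1 was higher by 0.18. Of the 81 lower genes, 64 had a higher untreated signal in Tlr4-/- than in wild type, against 62.2% of all genes, with a median gap of 0.33 against 0.08. At day 4 their median gap was -0.37 against 0.02. The Tlr4-/- arrays enter both the choice of these genes and the gaps, so the gaps are in part set by the choice.

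Genes of AEC2 identity were lower by small amounts, while surfactant genes differed little. Of 25 kept members of the identity list, 24 were below 0 with a median of -0.26, and 1 was at least 2-fold lower. Acoxl, an acyl-CoA oxidase-like gene, stood at 11.71 untreated and 10.48 at day 4. Cebpa, a transcription factor needed for AEC2 maturation, stood at 12.07 and 11.28, and Nkx2-1, the lineage factor of lung epithelium, was lower by -0.43. Lgi3 was lower by -0.78 and the complement gene Hc by -0.73. Of 12 surfactant and lamellar body genes kept, 0 were past 2-fold and 8 were below 0, with a median of -0.08. Ctsh, a protease that processes surfactant proteins, was higher by 0.51, and Fasn, the lipid transporter gene Abca3 and Lpcat1, which makes surfactant phospholipid, were lower by -0.30, -0.23 and -0.23. The 3 probe sets of Abca3 disagreed, from -0.99 to 0.77. Sftpc and Sftpb, near the top of the signal scale, differed by 0.03 and -0.06.

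Growth factor pathways that maintain AEC2 had medians below 0, with few members past 2-fold. In the FGF and ERK list, 14 of 17 kept members were below 0 and 0 were past 2-fold, with a median of -0.31 (-0.10 over all 28 on the array) against 0.00 in wild type (-0.0008). Fgfr2, the FGF receptor of AEC2, stood at 10.64 untreated and 9.84 at day 4, while wild type had 10.63 and 10.32. All 3 of its probe sets were lower, the smallest by -0.59. Etv5, an ETS factor downstream of FGF signalling, stood at 12.14 and 11.56 and in wild type at 12.08 and 12.10. Dusp4, an ERK phosphatase, and Spred2, a RAS pathway inhibitor, were each lower by -0.88, and Dusp7 was higher by 0.70. In the Wnt list, 17 of 22 were below 0 with a median of -0.31 (-0.18 over all 37 on the array), against -0.11 in wild type. The receptor Fzd7 was lower by -1.21, the 1 member past 2-fold. Notum, a secreted Wnt inhibitor, was lower by -0.66, beta-catenin (Ctnnb1) by -0.61 and Tcf7l1 by -0.61, while the cyclin gene Ccnd1 was higher by 0.57. In the EGF receptor list, 6 of 9 were below 0, with a median of -0.16 (-0.04 over all 19 on the array). Grb7, an adaptor of ERBB receptors, was lower by -1.05, and Errfi1, a feedback inhibitor of EGFR, stood at 13.01 and 12.40 against 12.68 and 12.75 in wild type.

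Sterol and fatty acid synthesis genes, which supply surfactant lipid, were lower in small steps. Of 34 kept members 30 were below 0, none past 2-fold (0), with a median of -0.21, and wild type had 20 above 0 and a median of 0.05. Srebf1, the transcription factor of lipid synthesis, stood at 10.82 untreated and 10.05 at day 4, and at 10.45 and 10.48 in wild type. Nsdhl, of cholesterol synthesis, was lower by -0.85, Gpam, which starts glycerolipid synthesis, by -0.71, the desaturase Fads2 by -0.66 and Sc5d by -0.63. The probe sets of Sc5d disagreed, with the brightest at 0.22 and the others at -1.19 and -0.92. For 33 of the 34 genes the Tlr4-/- difference was below the wild-type one, a comparison with no test and without the share over all genes. The median of Tlr4-/- minus wild type over the list was 0.19 untreated and -0.12 at day 4, so both pairs of arrays enter this count. The fatty acid oxidation and peroxisome list had 2 genes at least 2-fold higher and 2 lower among 31, with a median of 0.02 (-0.0022 after quantile normalization). Beside Pon1 and Acoxl, the peroxisomal thiolase gene Acaa1b stood at 6.36 untreated and 8.31 at day 4, against 7.72 and 7.01 in wild type. Pparg was higher by 1.07 and Eci2 by 0.89.

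Transitional epithelial genes were high at day 4. Of 22 kept members, 20 were above 0 and 10 were at least 2-fold higher, with a median of 0.86, and wild type had 9 and a median of 0.84. S100a14, an epithelial S100 protein, stood at 7.82 untreated and 9.66 at day 4. The galectins Lgals1 and Lgals3 were higher by 1.36 and 1.30, and Cdkn1a, whose product p21 halts the cell cycle, by 1.17 (0.72 by its brighter probe set). Tnfrsf12a, the receptor of TWEAK, was higher by 1.08, against 0.31 in wild type, and the keratin Krt8 by 0.32. Of 18 AEC1 genes kept, 5 were at least 2-fold higher and the median was 0.21, against 5 and 0.48 in wild type. For 14 of the 18 the Tlr4-/- difference was below the wild-type one, and so it was for 16 of the 22 transitional genes, comparisons with no test. The share over all genes is not given here, but 59.5% of all genes were above 0 in wild type against 51.7% in Tlr4-/-. Beside Pdpn, the AEC1 genes at least 2-fold higher were the anchoring protein Akap5 (7.26 to 9.26), the keratin Krt7 (9.44 to 11.14), S100a6 (11.02 to 12.39) and the homeodomain gene Hopx (8.72 to 9.93). Ager, the classical AEC1 marker, was higher by 0.08 and the water channel Aqp5 by 0.17. Tight junction genes had a median of 0.16 over 15 kept members. Cldn4 was the 1 gene past 2-fold higher, and Pard3, a polarity protein, the 1 past 2-fold lower (-1.15, or -0.73 by its brightest probe set). In the ion and fluid transport list, 3 of 18 were at least 2-fold higher, with a median of 0.18. Scnn1a, a subunit of the sodium channel that clears alveolar fluid, stood at 9.90 and 10.99, against 10.22 and 10.44 in wild type. The carbonic anhydrase Car4 was higher by 1.37 and the water channel Aqp1 by 1.27.

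The p53 response was among the highest groups that did not mark other cells. Of 32 kept targets, 28 were above 0, 14 were at least 2-fold higher and 0 lower, with a median of 0.88, and wild type had 12 and a median of 0.79. Dglucy, the highest of the list, was named above. Phlda3, which restrains Akt, stood at 9.05 untreated and 11.06 at day 4, and at 7.64 and 10.88 in wild type. Ccng1, cyclin G1, stood at 9.88 and 11.49, and at 8.81 and 11.50 in wild type. For both genes the untreated Tlr4-/- signal was the higher of the untreated pair, and the day 4 signals were within 0.18 of each other. Ercc5, a DNA repair nuclease, was higher by 2.01, Ddit4l by 1.79 and Mdm2, the ligase that degrades p53, by 1.49. Eda2r, a death receptor of the TNF family, stood at 6.38 and 7.79, whereas wild type had 7.75 and 7.06. Among mitosis genes 10 of 37 on the array were bright enough, and all of these 10 were above 0 with a median of 0.56 (0.20 over all 37). Cks1b, Ube2c, Cks2 and Cdca8, which act in cell division, were higher by 1.35, 1.18, 1.10 and 1.08. S phase genes had a median of 0.14 over 16 kept members, 1 past 2-fold, the primase Prim1 (1.08, against -0.08 in wild type). Apoptosis regulators had a median of 0.04 over 18 with 0 past 2-fold. The BH3-only gene Bik was lower by -0.83, and Birc2, Bak1 and Diablo were higher by 0.83, 0.70 and 0.70.

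Interferon-stimulated genes were higher together. All 23 kept members were above 0, 8 were at least 2-fold higher and the median was 0.85, and wild type had 10 and a median of 0.99. Over all 35 members on the array, the dim ones included, the Tlr4-/- median was 0.80. After Usp18, Ifi27l2a and Ifit1 came Oasl2, an oligoadenylate synthetase-like protein (7.95 to 9.32), and Zbp1, a sensor of nucleic acids (7.15 to 8.45). The chemokine gene Cxcl10 stood at 7.36 and 8.36, and Bst2, which tethers budding virus, at 9.05 and 10.25. The interferon-stimulated response element, a site for the STAT and IRF factors that switch on such genes, was searched as GAAA, any 2 bases and GAAA again on both strands of the 250 bases before each gene's start (RefSeq, GRCm38.p6). Of the list, 24 genes had a promoter in that set, and 9 of them (37.5%) held a match, against 936 of 27025 genes overall (3.46%) and 3.06% of the kept genes. Of the genes at least 2-fold higher, 10 of 170 with a promoter held one (5.88%), and of those at least 2-fold lower 1 of 62 (1.61%). The matching members were Ifit1, Ifit3, Oas1a, Stat2, Cxcl10, Bst2 and the dimmer Oas3, Rsad2 and Trim30a, with differences from 0.46 to 2.05. A match is a stretch of letters and was not tested as a binding site. These 3 promoters are shown because they hold the element at different distances, its letters in capitals. Ifit1 (chr19:34640639-34640888, plus strand) holds it 104 and 85 bases before the start, Cxcl10 (chr5:92348890-92349139, minus strand) 213 bases before, and Bst2 (chr8:71537473-71537722, minus strand) at 130 and 124 in overlapping copies.
Ifit1: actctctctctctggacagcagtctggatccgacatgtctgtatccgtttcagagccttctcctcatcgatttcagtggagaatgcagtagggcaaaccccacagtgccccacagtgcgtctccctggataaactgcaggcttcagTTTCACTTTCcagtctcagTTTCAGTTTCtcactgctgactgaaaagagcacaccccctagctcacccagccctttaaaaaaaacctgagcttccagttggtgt
Cxcl10: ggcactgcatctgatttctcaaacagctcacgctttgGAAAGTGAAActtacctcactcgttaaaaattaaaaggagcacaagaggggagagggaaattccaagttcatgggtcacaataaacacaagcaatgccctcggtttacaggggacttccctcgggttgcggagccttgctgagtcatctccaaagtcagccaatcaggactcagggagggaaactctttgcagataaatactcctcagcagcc
Bst2: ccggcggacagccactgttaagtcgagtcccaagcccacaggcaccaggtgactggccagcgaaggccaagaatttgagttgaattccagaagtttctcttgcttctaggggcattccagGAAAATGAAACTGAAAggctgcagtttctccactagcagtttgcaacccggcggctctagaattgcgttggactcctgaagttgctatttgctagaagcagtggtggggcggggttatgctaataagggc

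Other genes that interferons induce were higher by less. The interferon-inducible GTPases kept were Gbp7, Igtp and Irgm2, higher by 1.23, 0.75 and 0.71, and 6 of the 9 on the array were too dim. In the MHC class I list, 8 of 11 were above 0 with a median of 0.37. Nlrc5, the transactivator of class I genes, was higher by 1.14, the immunoproteasome subunits Psmb8 and Psmb9 by 0.89 and 0.81, and beta-2 microglobulin (B2m) by 0.53. In the class II list the median over 7 was 0.13. The protease gene Ctss stood at 10.77 and 12.25, while Cd74, the invariant chain, and H2-Aa were each lower by -0.20.

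Markers of other cells were higher beside these groups. Of 27 kept macrophage and leukocyte markers, 25 were above 0 and 18 at least 2-fold higher, with a median of 1.49 (1.19 over all 36 on the array), against 1.31 in wild type. Their summed linear signal without Lyz2, which AEC2 also express, was 10783 in the untreated and 28091 in the day 4 Tlr4-/- array, and 9066 and 23356 in wild type. Of the 36, 13 were below 7.05 on the untreated and 6 on the day 4 Tlr4-/- array, and 7 are also in another list here. The pan-leukocyte gene Ptprc stood at 7.41 and 7.61, higher by 0.20. The complement list had 6 of 12 at least 2-fold higher and a median of 1.04 (0.52 with the stricter filter, 0.46 with the probe set of highest mean), but the 3 C1q chains are macrophage products and in both lists. The factor B gene Cfb was higher by 1.25. Mesothelial markers kept were 5 of 14, with a median of 1.62 (0.87 over all 14). Beside Gpm6a, Msln stood at 7.27 and 9.13, Upk3b at 6.75 and 8.37 and Krt19, also an epithelial keratin, at 9.90 and 11.02. Msln and Upk3b had wild-type values of 8.11 and 9.22, and 8.26 and 8.88, so the untreated Tlr4-/- array was again the lowest. The summed mesothelial signal was 1782 and 4072 in Tlr4-/- and 2373 and 3955 in wild type. In sorted pools, more cells of a type and more RNA per cell cannot be told apart, and the part of other cells in the differences of AEC2 was not tested.

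The remaining marker lists had smaller medians. Of 6 kept fibroblast and smooth muscle markers, Col1a1 was higher by 1.68 and Dcn by 0.81, with a median of 0.55 (0.20 over all 22 on the array, 1.42 by the brightest probe sets), and the summed signal was 3121 and 4337. Neutrophil markers had a median of 0.43 over 6 kept (0.02 over all 15), led by Ltf at 1.30, with S100a8 at 0.28. Lymphocyte (2 of 17 kept), endothelial (3 of 18) and erythroid and platelet lists (4 of 9) were mostly too dim. Cd2 was higher by 0.74, Vwf by 0.85 and the platelet chemokine Pf4 by 0.98, and the list medians were 0.40 (-0.09 without the filter), 0.04 and -0.11. The other platelet and erythroid markers, Itga2b, Gp9 and Hba-a2, were lower by -0.17, -0.16 and -0.06. Among T cell genes below the filter, Cd8b1 was lower in Tlr4-/- by -1.85, Cd8a by -1.82, Cd3g by -1.61, Cd3d by -0.97 and Cd3e by -0.61. Their wild-type differences were -0.01, -0.11, -0.37, -0.72 and 0.29. Cd4 was lower by -0.48 and Il7r higher by 0.65 in Tlr4-/-. All of these genes were below 7.05 on the day 4 Tlr4-/- array, so the size of their differences is uncertain. The summed lymphocyte signal was 1684 untreated and 1332 at day 4 in Tlr4-/-, and 1548 and 1308 in wild type. Basal airway markers had a median of 0.13 over 4, of which Pdpn is shared with AEC1. Club and secretory airway markers had 4 of 15 at least 2-fold higher and a median of 0.27 (0.51 with the probe set of highest mean), against -0.20 in wild type, and ciliated markers a median of 0.16 over 10 (-0.60 with the stricter filter), against -0.26. Ccdc153 was higher by 0.91 and Dynlrb2 lower by -0.67. The summed club signal was 38087 and 41073 in Tlr4-/-, and 51020 and 43092 in wild type.

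**Figure D3:**
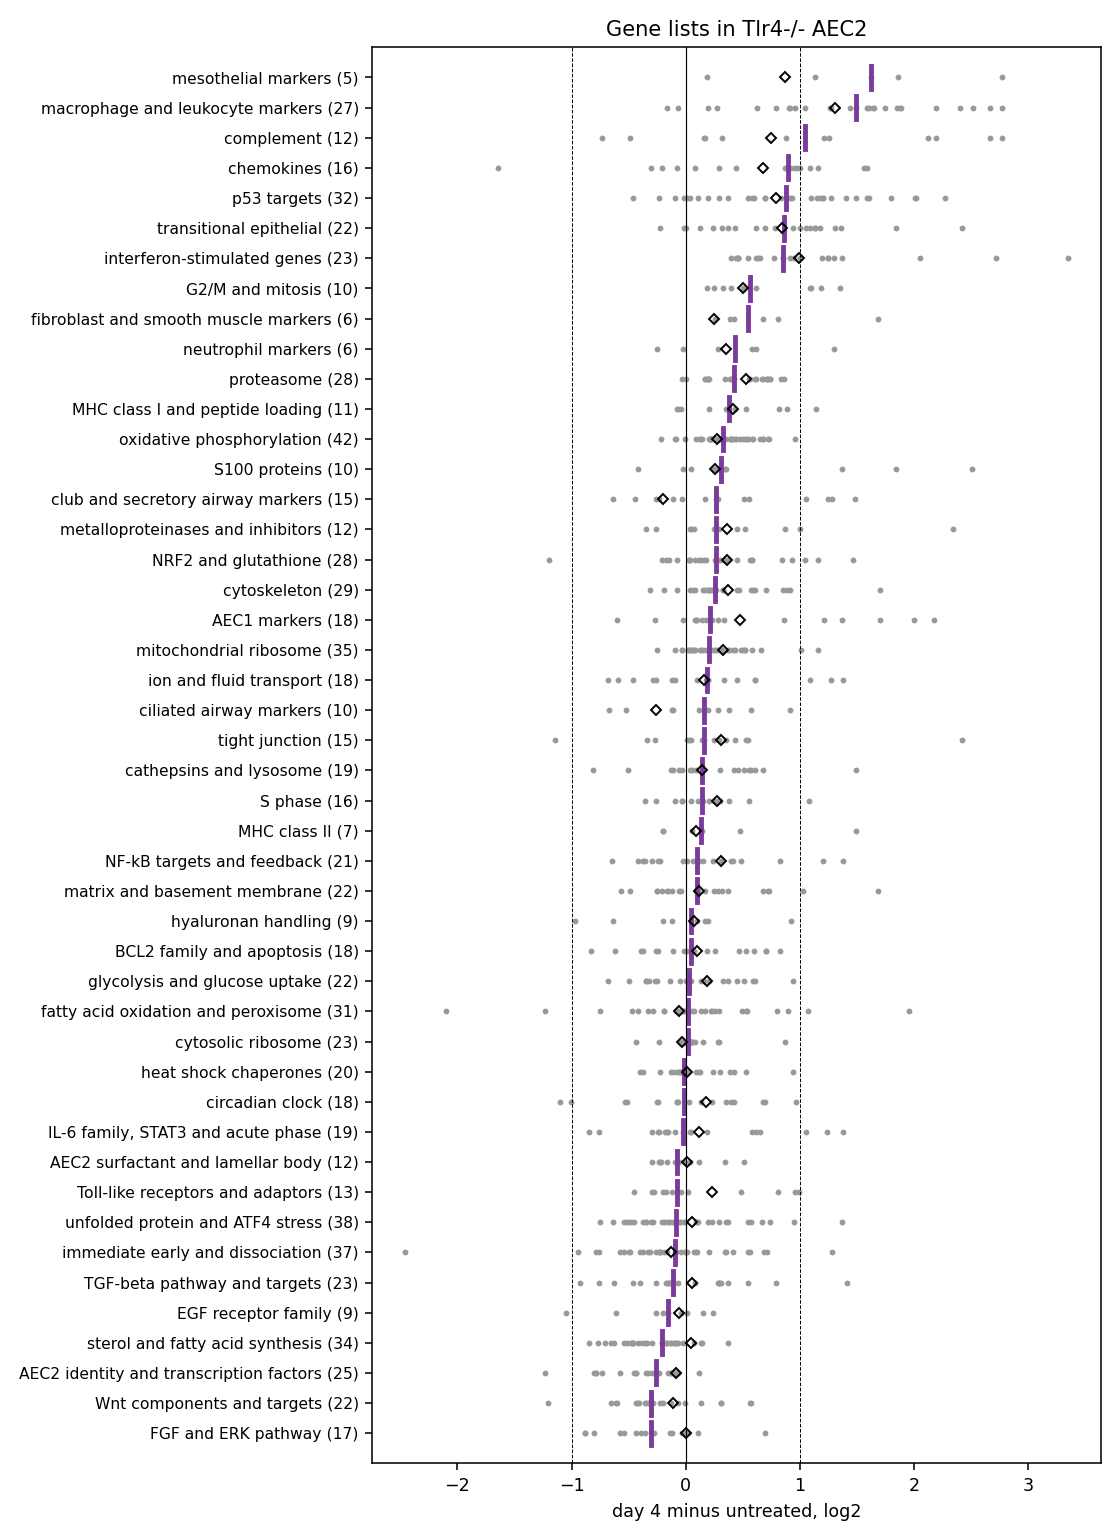
Day 4 minus untreated difference (log2) of every kept member of each list with at least 5 kept members in Tlr4-/- AEC2 (grey points), with the list median in Tlr4-/- (purple bar) and in wild type (open diamond); numbers in brackets are kept members and dashed lines mark 2-fold. Mesothelial, leukocyte, complement, chemokine, p53, transitional and interferon lists lie at the top, with medians from 0.85 to 1.62 (0.46 for complement and 0.35 for chemokines by the brightest probe sets), and FGF, Wnt and AEC2 identity lists at the bottom, from -0.31 to -0.26.

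Chemokine genes and NF-kB targets each held a few genes past 2-fold in cells without TLR4. Of 16 kept chemokine genes, 4 were at least 2-fold higher and 1 lower, with a median of 0.89 (0.37 without the filter, 0.29 with the stricter filter, 0.35 with the probe set of highest mean). Ccl6 and Ccl17, which attract leukocytes, were higher by 1.59 and 1.56, Ccl9 by 1.16 and the monocyte chemokine Ccl2 by 1.08. The neutrophil chemokine Cxcl1 was lower by -0.21, against a wild-type difference of 0.79. The NF-kB list had 2 of 21 at least 2-fold higher, 13 above 0 and a median of 0.10 (-0.03 with the probe set of highest mean), against 0.30 in wild type. Its higher members were Lif, a cytokine of the IL-6 family, by 1.38, and Il1b, at 8.97 untreated and 10.18 at day 4, whereas Ptgs2, the inducible cyclooxygenase, was lower by -0.65. Tnfaip3 and Nfkbia, which shut NF-kB down, were lower by -0.30 and -0.23, and higher by 0.54 and 0.30 in wild type. Toll-like receptor components had 0 of 13 past 2-fold and a median of -0.08 (0.14 with the probe set of highest mean), against 0.23 in wild type. Tlr2 was higher by 0.99, the co-receptor Cd14 by 0.96 and the kinase gene Irak2 by 0.81, and the adaptor gene Ticam1 was lower by -0.45. The IL-6, STAT3 and acute phase list had 3 of 19 at least 2-fold higher and a median of -0.03 (0.03 with the probe set of highest mean). Osm, a cytokine of the same family, was higher by 1.24 and the lectin Reg3g by 1.06, while the fibrinogen gene Fgg was lower by -0.84 and the kinase gene Jak2 by -0.76.

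Hyaluronan genes had no member past 2-fold (0 of 9 kept of 26 on the array), with a median of 0.05 (-0.12 with the stricter filter). Itih4, of the inter-alpha-trypsin inhibitor family whose heavy chains bind hyaluronan, stood at 12.62 untreated and 11.64 at day 4, and Itih1 at 7.85 and 7.21. The scavenger receptor Stab1 was higher by 0.92, the synthase gene Has1 by 0.19 and Hapln3 lower by -0.20. The synthase gene Has2 was dim, at 5.10 and 4.99. TGF-beta genes had 1 of 23 at least 2-fold higher and a median of -0.11 (0.01 with the probe set of highest mean). Ccn2, a matricellular target, stood at 7.39 and 8.80 and Tgfbi was higher by 0.79, but the decoy receptor Bambi was lower by -0.93 and the signal transducer Smad3 by -0.76. Matrix genes had a median of 0.10 over 22, with Col1a1 and Col6a2 (1.03, or 0.87 by its brighter probe set) past 2-fold, and Col6a1 and Lama5 at 0.73 and 0.72. In the cytoskeleton list 26 of 29 were above 0 (median 0.26), and vimentin (Vim) stood at 9.52 and 11.22. Tubb2a, Flna, Tubb6 and Msn were higher by 0.91, 0.88, 0.85 and 0.70. Metalloproteinases and inhibitors had a median of 0.26 over 12, with Timp1, the urokinase receptor gene Plaur (8.55 to 9.55) and Timp2 (0.87) highest. The probe sets of Timp2 ranged from 0.381 to 2.183, with the brightest at 0.385. S100 genes had a median of 0.31 over 10 and lysosomal genes 0.14 over 19, in which Hexa was lower by -0.81 and Lgmn higher by 0.68.

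Stress lists were mixed. NRF2 and glutathione genes were above 0 in 23 of 28 (median 0.26), with the aldo-keto reductase Akr1b8, Gsto1 and the sulfiredoxin Srxn1 at 1.46, 1.16 and 1.04, and the aldehyde oxidase Aox3 lower by -1.20. In the unfolded protein and ATF4 list, 24 of 38 were below 0 (median -0.09). Psat1, Asns and Phgdh, which make serine and asparagine, were higher by 1.37, 0.95 and 0.74, and Herpud1, of ER-associated degradation, was lower by -0.75. By their brightest probe sets Psat1 was at 0.75 and Phgdh at -0.02. Heat shock chaperones had a median of -0.01 over 20 (0.19 with the probe set of highest mean), with Cryab at 0.94. The brighter probe sets of Cryab were at 1.40 and 1.41, and a dim one at 0.01. Immediate early genes, which also respond to cell dissociation, were below 0 in 24 of 37 with a median of -0.10. Beside Gem, Egr1 stood at 12.87 and 11.92, Nr4a1 was lower by -0.79 and Klf2 by -0.76, while the AP-1 gene Fosl1 was higher by 1.28 (0.77 by its brighter probe set).

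Clock genes went both ways in Tlr4-/- cells. In the positive arm, the 2 genes named by size were lower, Npas2 at 9.20 untreated and 8.10 at day 4 and Arntl, which encodes BMAL1, at 8.49 and 7.48. Their wild-type values were 8.83 and 7.86, and 8.08 and 7.13. By its brighter probe set Npas2 was lower by -0.82. Tef, Per2 and Per1, output and feedback genes, were higher by 0.96, 0.69 and 0.68, and the list median was -0.02 over 18 (0.02 with the probe set of highest mean). Dbp, another output gene, was higher by 0.13, against 1.32 in wild type. The E-box CACGTG, the site of the BMAL1 complexes, was found in 5 of 17 clock genes with a promoter in the set (29.4%), against 6.86% of all genes and 10.1% of those kept, namely Per1, Cry1, Tef, Ciart and the dim Bhlhe41. The hour at which lungs were taken is not stated in the labels used here.

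Mitochondrial and proteasome genes were higher by small amounts across their lists. Of 42 oxidative phosphorylation genes, 38 were above 0 with a median of 0.32, led by the complex II genes Sdhb (9.77 to 10.73) and Sdhd (0.73) and by Uqcrc1 of complex III (0.72). Proteasome genes were above 0 in 27 of 28 (median 0.42), with Psmb3 and Psmb7 at 0.86 and 0.83. Mitochondrial ribosomal genes were above 0 in 31 of 35 (median 0.20), with Mrpl46 and Mrpl11 at 1.16 and 1.01. Cytosolic ribosomal genes had a median of 0.02 over 23 and Rps25 at 0.87. Glycolysis genes had a median of 0.03 over 22, with Pdk4, a kinase that inhibits pyruvate dehydrogenase, at 0.94, Pgam1 at 0.60 and Pck2 lower by -0.68.

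The bleomycin difference of Tlr4-/- cells departed from that of wild type by at least 2-fold in 138 of 9097 genes (1.52%), in 61 (0.671%) towards higher and in 77 (0.846%) towards lower values in Tlr4-/-. With 4 arrays for 4 groups this departure has no test. In 108 of the 138 the genotypes differed more in the untreated arrays than at day 4, which was so for 59.2% of all genes. In 100 of the 138 the genotypes' differences had opposite signs. The share of opposite signs over all genes is not given here, and this count is in part set by choosing genes on the departure. Over all genes, 71 were at least 2-fold higher and 31 lower in Tlr4-/- than in wild type when untreated, and 4 and 5 at day 4. Some airway secretory genes show the pattern, and the first 3 below were named because they were among the 10 highest by this measure. Scgb3a2, a secretoglobin, stood at 10.96 untreated and 12.24 at day 4 in Tlr4-/-, and at 12.45 and 12.07 in wild type. Aldh1a1, an aldehyde dehydrogenase of club cells, stood at 8.25 and 9.49, against 9.83 and 9.31, and the club cell cytochrome Cyp2f2 at 10.30 and 10.85, against 11.84 and 10.70. For these 3 genes the untreated Tlr4-/- array was the lowest of the 4, and the day 4 arrays were within 0.18 of each other. Bpifa1, an airway secretory protein outside the 10 genes highest by this measure, stood at 8.69 and 10.17, against 10.52 and 10.44. Reg3g, also a club and secretory marker, was lower in Tlr4-/- than in wild type by -0.31 untreated and by -0.73 at day 4. Among the 15 club and secretory markers kept, the Tlr4-/- difference was above the wild-type one in 10 and below it in 5. This comparison has no test and is given without the share over all genes.

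The remaining genes differed in which arrays stood apart. For Spr the untreated gap between the genotypes was 0.36 and the day 4 gap -1.73, and for Gem 0.25 and -1.13. For Acaa1b the gap went from -1.36 to 1.30, and it was the highest departure, at 2.67. Eda2r went from -1.37 to 0.73, and the antibacterial protein gene Pglyrp1 from -1.07 to 0.52. Of the genes lower by this measure, Saa3, an acute phase gene, stood at 8.37 and 8.56 in Tlr4-/- and 6.69 and 8.50 in wild type (untreated gap 1.68, day 4 gap 0.06), and the protease inhibitor gene Serpina3n at 7.57 and 8.21 against 6.46 and 8.56. Both were higher in untreated Tlr4-/- than in untreated wild type, and the untreated wild-type array was the lowest. Cmas, which activates sialic acid (9.28 and 9.42 against 8.03 and 9.60), and Akr1c19 (8.28 and 8.04 against 7.25 and 8.49) had the same order of untreated arrays. Speer4cos, Gatd3a and Tmem198b on the higher side and Slc25a47, Lrrc51, Ppp6r1, Ddx56 and Dnajb14 on the lower side completed the 10 each way, with departures of 2.33, 1.65, 1.59, -1.58, -1.57, -1.53, -1.43 and -1.39.

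**Figure D4:**
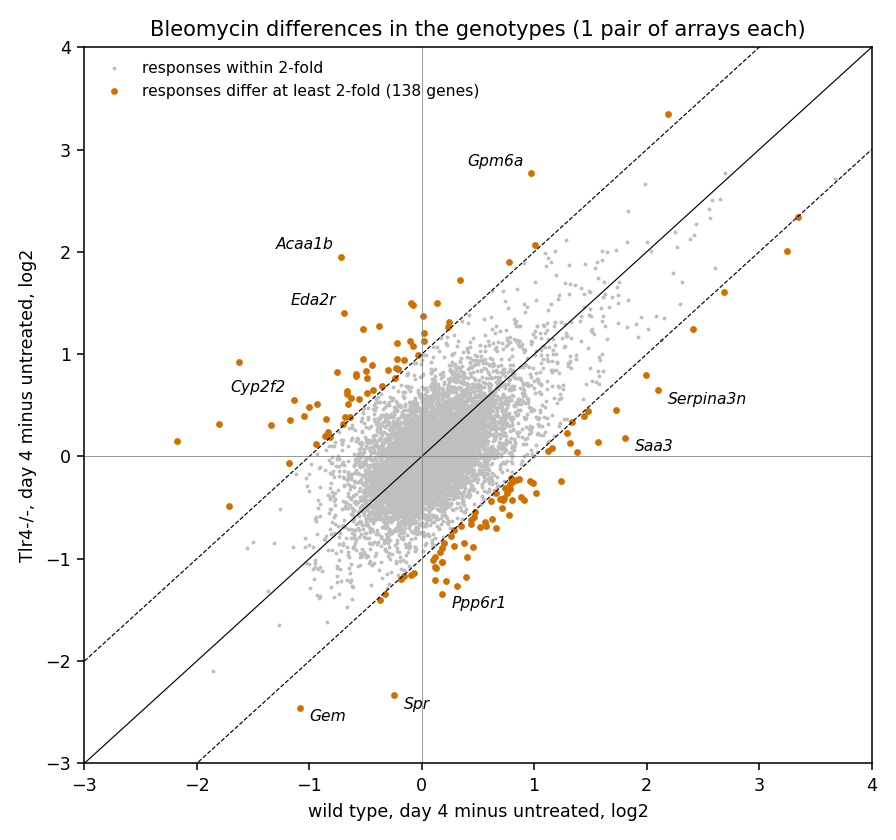
Day 4 minus untreated difference (log2) of each of 9097 genes in wild type (horizontal) and in Tlr4-/- (vertical), 1 pair of pooled arrays each; the solid line marks equal differences, the dashed lines a 2-fold departure, and the 138 orange genes lie beyond it. Acaa1b and Eda2r lie in the upper left, higher in Tlr4-/- and lower in wild type, and Spr and Gem lie at the bottom.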

How the data were processed

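Deposited values were taken as log2 signals per probe set of an Affymetrix mouse 3' expression array, read as log2 from their range (3.15 to 14.51 on the Tlr4-/- day 4 array) because how the authors corrected background and normalized between arrays, and with what software, is not given in the sources used here. Per the labels' protocols, kits were used to amplify the cDNA and to label it with biotin. Of 45101 probe sets, 34958 carried 1 gene symbol in the platform annotation, 932 several and 9211 none; 34754 were matched to RefSeq by Entrez identifier. Probe sets were averaged per gene with pandas 2.3.3 in Python 3.11.15. Differences between single arrays were counted past 2-fold, with no test, and counting was tested on simulated data. The precision is limited by 1 array per group. The members and the 52 gene lists were chosen with earlier results of these data known, and counts of list members cover only genes past the filter.

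Genes were named by rule: Tlr4, the 20 highest and 20 lowest, 10 each way by the difference between genotypes, and up to 5 members of a list by size; predicted genes, segments of immunoglobulin and antigen receptor genes, Xist and Y-linked genes were not ranked. Sftpc, Sftpb, Nkx2-1, Tnfrsf12a, Krt8, Ager, Aqp5, Mdm2, Cxcl10, Bst2, Ptprc, Cxcl1, Tnfaip3, Nfkbia, Has2, Dbp, the dim genes and those named for a motif were outside this rule and chosen after their values were seen. Alternatives were the probe set of highest mean, no filter, a stricter filter at the 75th percentile, a filter on the Tlr4-/- arrays, quantile normalization, centring, thresholds of 1.5-fold and 3-fold, and agreement of all probe sets.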

Additional observations from a re-analysis of the deposited data

Results flagged for a closer look

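Of the 20 genes named for a departure between the genotypes, 5 were higher in one genotype and lower in the other by at least 0.5 each; with 1 array per group these differences were not tested. Acaa1b departed by 2.67 (Tlr4-/- 1.95, wild type -0.72) and Eda2r by 2.10 (1.40 and -0.69). Aldh1a1 departed by 1.77 (1.24 and -0.52) and Cyp2f2 by 1.69 (0.55 and -1.14), both markers of airway secretory cells. Tmem198b departed by 1.59 (0.83 and -0.76), and its lower probe set was at 0.21 in Tlr4-/-.

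Probe sets without a single gene symbol, which no gene value above uses, also held differences. Of 2963 such probe sets with a mean above 7.05, 99 were at least 2-fold higher and 61 lower at day 4 in Tlr4-/-, and 54 and 89 in wild type.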

How the results depend on the processing

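The counts of 223 higher, 81 lower and 138 departing genes stayed within 1.5 times under quantile normalization, centring on the median and the filter on the Tlr4-/- arrays. Other filters and thresholds test or pass other numbers of genes. Without the filter they were 342, 141 and 305, with the stricter filter 94, 43 and 46, at 1.5-fold 725, 467 and 963, and at 3-fold 61, 5 and 14. Taking each gene's brightest probe set, the lower genes were 127, of which 61 were among the 81, and the departing genes 222; the higher genes were 258, of which 171 were among the 223. The cause of this change was not tested. Every probe set of the gene was past 2-fold in 181 higher and 58 lower genes. Of 1482 values of 271 named genes under these alternatives, 1437 moved by less than 0.23, the median SD between probe sets, 45 by more, and 0 of those past 2-fold changed sign. The filter settings cannot change the value of a gene, and centring shifts every gene alike by 0.01. Only quantile normalization and the brightest probe set could move a value past 0.23, and genes not kept under a setting are not counted. These counts therefore do not measure how stable the values are. By their brightest probe set Npas2 was at -0.82, Ptprg at -0.88 and Cdkn1a at 0.72, and Usp18, C1qa, C1qc, Itgax, Acaa1b, Eda2r, Lif, Nlrc5, Pparg, Slc25a47, Thrb and Tox3 did not pass the filter. Gpm6a and Thrb did not pass the filter on the Tlr4-/- arrays, and Mrpl11 and Plaur were just under 2-fold after quantile normalization. No paired analysis was possible because each group had 1 array. The number of arrays, 1 per group, limits the precision, and 70 of the 223 higher genes were dim when untreated.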

Other observations

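Some genes below the filter had differences of their own in Tlr4-/- cells. The antiviral gene Rsad2 was higher by 1.51 and Trim30a by 1.34, both interferon-inducible. Siglecf, a lectin of alveolar macrophages and eosinophils, stood at 7.08 untreated and 7.87 at day 4 in Tlr4-/-, and at 4.79 and 7.56 in wild type. Pecam1, an endothelial adhesion gene, was lower by -1.09 in Tlr4-/- and by -0.81 in wild type. Orm1, an acute phase gene, stood at 4.65 and 8.47 in Tlr4-/-, and at 4.68 and 8.24 in wild type. Its Tlr4-/- difference of 3.81 was larger than that of Usp18, the highest gene kept. The fibrinogen gene Fga, in contrast, was lower by -1.24 in Tlr4-/-. Rsad2, Trim30a and Orm1 were below 7.05 on the untreated Tlr4-/- array, Pecam1 on the day 4 array and Fga on both. The size of the differences of these genes is therefore uncertain.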
